A study of Mus musculus with 4 samples.

Results

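The genes described here are 10 genes that the tumour suppressor p53 is known to induce for growth arrest and stress protection, with p21 (Cdkn1a) and Mdm2 left out: Sesn1, Sesn2, Tigar, Btg2, Gadd45a, Plk2, Plk3, Zmat3, Phlda3 and Eda2r. They were chosen by name, with earlier results of these data known, and no test of them as a set was run. All 10 were present among the 20065 genes of the deposited table. They were measured by RNA-seq of ribosome-depleted RNA from cultured satellite cells (muscle stem cells, MuSC) of limb and trunk muscles of adult C57BL/6 mice, in 2 control and 2 Prmt5sKO libraries, to ask what the loss of the arginine methyltransferase Prmt5 changes in the transcriptome of these cells. Control cells carried Pax7CreERT2 and 1 floxed Prmt5 allele (Pax7CreERT2/Prmt5+/loxP), so the group labelled wild type shares the Cre driver and the tamoxifen treatment (+TAM) with the mutant. Prmt5sKO cells carried Pax7CreERT2/Prmt5loxP/loxP (+TAM). The Cre is expressed from Pax7, so recombination is limited to cells that express this satellite cell factor or descend from them. Per the study's methods, the cultured cells were given 4-hydroxytamoxifen. The labels do not say whether libraries of a group came from separate animals, so every p-value below measures the spread between these libraries only, which may be technical.

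The deposited values are group means, from which the whole reads of each library were recovered, as described with the processing. The libraries carry no replicate number in the table and are named by depth, and of each pair of values the deeper library of the group is given first. The recovered totals ranged from 13240754 to 20047430 reads, and values are given as read counts normalised by trimmed mean of M-values (TMM), or normalised counts. Prmt5 had 2273 and 2906 normalised counts in control and 244 and 202 in Prmt5sKO. Pax7 lay between 2570 and 3664 and Myod1 between 12153 and 15548 normalised counts in all 4 libraries, so these defining markers of myogenic cells were present in each. The 8 markers of satellite cells and myoblasts had log2 fold changes from -0.41 (Myf5) to 0.67 (Des). Markers of muscle differentiation stood furthest apart in 1 library. The normalised counts of 12 such genes summed to 50071 and 97369 in control. They summed to 44407 in the deeper Prmt5sKO library and to 367168 in the shallower one. Ttn alone had 39149 and 90033 normalised counts in control and 28427.5 and 171011 in Prmt5sKO. It therefore dominated the control sums and that of the deeper Prmt5sKO library. Gene by gene, 9 of the 12 were higher in Prmt5sKO without overlap, against 25.2% of the 16212 genes tested. The deeper library thus also exceeded control for these 9. The groups overlapped for the other 3, Ttn among them. None of these 12 markers was at 0 in any library. Myog, the early differentiation factor among them, had 1436 and 1189 normalised counts in control and 3707 and 19508 in Prmt5sKO, and the fold changes of the list ran from 0.25 for Ttn to 3.97 for Ckm on the log2 scale.

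p53 is a transcription factor that accumulates after DNA damage and other stress, binds paired copies of a short DNA consensus and switches on genes that stop the cell cycle, repair damage, restrain growth or kill the cell. Many of these genes are also switched on by other signals, such as growth factor stimulation or amino acid shortage, so their RNA level does not read out p53 alone. In muscle stem cells the pathway is known for limiting proliferation and for its part in the choice between quiescence, differentiation and death.

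Of the 10 genes, 7 had each of their Prmt5sKO values above each of their control values (Sesn1, Sesn2, Btg2, Gadd45a, Plk2, Zmat3 and Eda2r), Plk3 and Tigar had each below, and the groups overlapped for Phlda3. Btg2, Eda2r and Gadd45a were at least 2-fold higher, with log2 fold changes of 2.21, 1.78 and 1.50. None of the 10 passed an adjusted p of at most 0.05 with at least a 2-fold change in limma-voom with Benjamini-Hochberg adjustment over the 16212 genes with a mean of at least 5 normalised counts, and neither did any other gene (0% of genes tested, smallest adjusted p 0.193). That smallest value was of Prmt5, the deleted gene itself, at a log2 fold change of -3.52. A lack of calls here is therefore not a lack of change. The paper, with DESeq2, reports changed genes at a false discovery rate under 0.05. At an unadjusted p under 0.05, 4 of the 10 were higher (Sesn2, Btg2, Plk2 and Eda2r) and 0 were lower, where 6.01% of all genes tested were higher and 6.95% lower. Scaled by library size alone, 1365 higher and 764 lower genes passed this unadjusted threshold in place of 975 higher and 1126 lower, and the median log2 fold change of all genes moved from 0.02 to 0.13. The number of genes called changed when 1 Prmt5sKO library was left out. Such a fit has no measured spread in the group with 1 library, and its counts are given at the end.

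The share of all genes tested whose groups did not overlap was 25.2% with higher and 23.6% with lower values in Prmt5sKO, against 7 and 2 of the 10. A fold of at least 2 in the higher direction was reached by 12.8% of all genes tested and by 3 of the 10. The median log2 fold change was 0.78 over the 10 genes and 0.02 over all genes tested. An exact two-sided permutation test of 2 against 2 libraries cannot give a p below 0.333, so no single gene could be called by it. In these bulk samples, fewer cells that express a gene and less RNA per cell cannot be told apart.

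**Figure D1:**
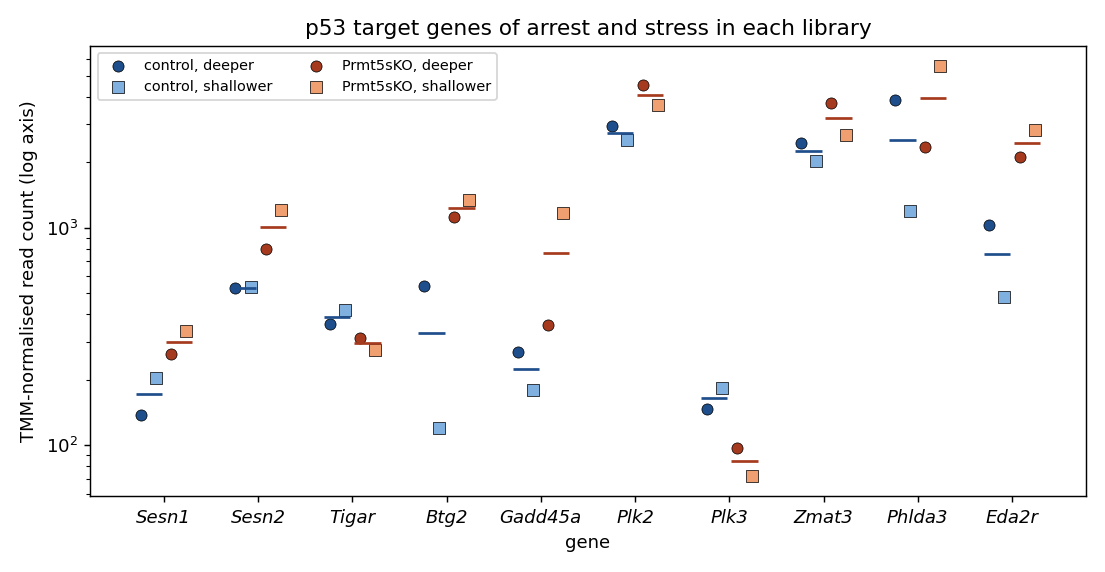
TMM-normalised read counts (log axis) of the 10 genes in the 4 libraries, circles for the deeper and squares for the shallower library of each group, with a bar at each group mean. Both Prmt5sKO points lie above both control points for 7 genes and below them for Tigar and Plk3, and the widest gap within a group is that of Btg2 in control, from 121 to 539.

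The promoters were read for short consensus sequences of transcription factors, since the same gene can be driven by p53 and by other signals. RefSeq windows of 250 bases before to 50 bases after the start site (GRCm38.p6) were held for 9 of the 10 genes, with 2 windows for Sesn1, and were set beside all 32851 windows. Both strands were searched. The 10-letter consensus that p53 binds in pairs was present in the Gadd45a window and in the second Sesn1 window, and in 8.36% of all windows. The longer element of 20 letters, with at most 1 mismatch, was in 0 of the 10 windows and in 22 of all windows, among them the one of Cdkn1a. The cyclic AMP response element TGACGTCA was in the windows of Btg2 and Plk2, and in 1.79% of all windows. The TATA box TATAAA was in the Eda2r window only among the 10, and in 13.6% of all windows, while the AP-1 element, TGACTCA or TGAGTCA, was in none of the 10 and in 5.20% of all windows. CCAAT was in 7 of the 10 windows and in 37.4% of all. None of the matches in these windows overlapped another. The number of CG dinucleotides ran from 5 in the Eda2r window to 32 in that of Btg2, with a median of 7 over all windows. A match is a description of letters, and binding was not measured here. The 250 bases before the start site are shown for the 5 windows with a p53, cyclic AMP or TATA match, 5′ to 3′ on the strand of the gene, with that match in capitals. Gadd45a is at chr6:67037408-67037657 (minus strand), the second Sesn1 window at chr10:41887189-41887438 (plus), Btg2 at chr1:134079156-134079405 (minus), Plk2 at chr13:110394794-110395043 (plus) and Eda2r at chrX:97377210-97377459 (minus).
Gadd45a: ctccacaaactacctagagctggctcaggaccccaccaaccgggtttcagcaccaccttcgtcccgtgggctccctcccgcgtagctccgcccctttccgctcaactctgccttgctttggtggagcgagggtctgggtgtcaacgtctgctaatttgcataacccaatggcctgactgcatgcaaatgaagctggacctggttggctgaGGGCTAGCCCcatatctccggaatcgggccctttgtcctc
Sesn1: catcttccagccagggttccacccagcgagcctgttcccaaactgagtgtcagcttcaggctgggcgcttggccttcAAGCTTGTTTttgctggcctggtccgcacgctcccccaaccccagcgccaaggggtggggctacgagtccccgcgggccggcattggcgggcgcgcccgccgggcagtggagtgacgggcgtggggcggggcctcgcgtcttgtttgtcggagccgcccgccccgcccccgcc
Btg2: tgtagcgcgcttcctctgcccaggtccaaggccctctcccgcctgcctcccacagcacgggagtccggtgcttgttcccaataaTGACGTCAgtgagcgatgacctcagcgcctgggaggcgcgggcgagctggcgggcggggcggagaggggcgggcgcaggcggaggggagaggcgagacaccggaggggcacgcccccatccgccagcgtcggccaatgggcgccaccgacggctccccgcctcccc
Plk2: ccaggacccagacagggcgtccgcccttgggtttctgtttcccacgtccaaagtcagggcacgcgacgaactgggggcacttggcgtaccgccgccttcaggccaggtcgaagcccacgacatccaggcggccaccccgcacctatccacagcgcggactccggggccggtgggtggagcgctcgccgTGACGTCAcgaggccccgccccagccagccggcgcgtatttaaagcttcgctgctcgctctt
Eda2r: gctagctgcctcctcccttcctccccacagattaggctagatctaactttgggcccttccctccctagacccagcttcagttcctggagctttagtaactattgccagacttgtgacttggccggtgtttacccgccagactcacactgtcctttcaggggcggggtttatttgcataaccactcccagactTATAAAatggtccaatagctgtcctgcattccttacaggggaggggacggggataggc
The capitals begin 40 bases before the start site in Gadd45a, 173 in Sesn1, 166 in Btg2, 62 in Plk2 and 58 in Eda2r. Sesn2, Phlda3, Plk3 and Tigar held none of these matches, and Zmat3 had no window.

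The sestrins and Tigar protect cells from oxidative and nutrient stress. Sesn1 and Sesn2 encode sestrins, which lower the activity of the growth kinase complex mTORC1 and the level of reactive oxygen species. Tigar encodes a fructose bisphosphatase that diverts sugar from glycolysis to the pentose phosphate pathway. The sestrin genes were higher in both Prmt5sKO libraries and Tigar was lower.

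Sesn2 (ENSMUSG00000028893, chr4:132492032-132510501, minus strand) had 527 and 533 normalised counts in control and 803 and 1212 in Prmt5sKO. The control libraries lay close together and both Prmt5sKO libraries lay above them, the lower one by 1.51 times. The means were 529.8 ± 4.53 and 1008 ± 289 (SD, n = 2 each), a log2 fold change of 0.89 (SE 0.28, limma-voom adjusted p = 0.317). Sesn2 is also known as a target of ATF4, the factor of the amino acid and endoplasmic reticulum stress response. Of 12 genes of that response, 1 was higher and 3 were lower without overlap, where 25.2% of all genes tested were higher and 23.6% lower. The median log2 fold change was -0.15 (from -1.04 for the serine synthesis gene Psat1 to 1.05 for Ddit4), and Atf4 itself had 4489 and 7630 normalised counts in control and 4372 and 5036 in Prmt5sKO. The part of that response in the Sesn2 values was not tested.

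Sesn1 (ENSMUSG00000038332, chr10:41809935-41908424, plus strand) had 138 and 205 normalised counts in control and 262 and 337 in Prmt5sKO. The groups did not overlap, and the lowest Prmt5sKO value was 1.28 times the highest control value. This gave a log2 fold change of 0.82 (SE 0.35, limma-voom adjusted p = 0.393). Sesn3, the sestrin better known as a target of the FoxO factors than of p53, had 476 and 429 normalised counts in control and 667 and 888 in Prmt5sKO, with a log2 fold change of 0.76 (SE 0.26). All sestrin genes thus had higher values in both Prmt5sKO libraries, and the reads of Sesn2 per read of Sesn1 overlapped between the groups (3.82 and 2.60 in control, 3.07 and 3.60 in Prmt5sKO), as did those of Sesn2 per read of Sesn3.

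Tigar (ENSMUSG00000038028, chr6:127085116-127109557, minus strand) had 359 and 419 normalised counts in control and 313 and 276 in Prmt5sKO. Both Prmt5sKO libraries were below both control libraries, with means of 294 ± 26.2 against 389 ± 42.1 (SD, n = 2 each). This is a log2 fold change of -0.39 (SE 0.26, limma-voom adjusted p = 0.540, 95% interval -1.03 to 0.25). Of the related phosphofructokinase-bisphosphatase genes, Pfkfb1 and Pfkfb3 were also lower in both Prmt5sKO libraries (log2 fold changes -1.10 and -0.70), Pfkfb4 was higher in both (0.24), and Pfkfb2 overlapped (0.20). Tigar shares 3.335% of its exon bases with Platr31 on the opposite strand, and whether the counting used strand is not given in the sources used here.

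Btg2 and Gadd45a act on the cell cycle. Btg2 encodes an antiproliferative protein that recruits the CCR4-NOT complex, which shortens the poly(A) tails of mRNAs. Gadd45a encodes a small protein induced by DNA damage that binds cell cycle and stress kinase regulators such as PCNA and MTK1. Both were at least 2-fold higher in Prmt5sKO, and each had 1 library far from its partner.

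Btg2 (ENSMUSG00000020423, chr1:134075170-134079120, minus strand) had 539 and 121 normalised counts in control and 1123 and 1344 in Prmt5sKO. The control libraries differed 4.47-fold, which is wider than the difference between control libraries for 93.4% of genes tested, while the Prmt5sKO libraries differed 1.20-fold. Even so the lower Prmt5sKO value was 2.08 times the higher control value. The means were 329.8 ± 296 and 1233 ± 156 (SD, n = 2 each), and the log2 fold change was 2.21 (SE 0.59, 95% interval 0.78 to 3.64, limma-voom adjusted p = 0.276), larger than that of 96.6% of genes tested. Without the shallower control library the log2 fold change was 1.19, and without the deeper one it was 3.33. Btg2 is also an immediate early gene, induced within minutes by growth factors or by handling of cells. Among 12 immediate early genes, 4 were higher and 1 was lower without overlap, where 25.2% of all genes tested were higher and 23.6% lower. Their median log2 fold change was 0.37. The lowest was Fosl1 at -0.88, and Egr3, the highest, had 0 reads in the shallower control library and is given no fold. Egr1 had 1333 and 527 normalised counts in control and 2689 and 1747 in Prmt5sKO, and it was lower in the shallower control library, as Btg2 was. The part of that response in the Btg2 values was not tested.

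Btg1, the closest relative of Btg2, had 1287 and 870 normalised counts in control and 2452 and 1557 in Prmt5sKO, a log2 fold change of 0.88 (SE 0.32, limma-voom adjusted p = 0.346). The reads of Btg2 per read of Btg1 amounted to 0.419 and 0.139 in control and 0.458 and 0.863 in Prmt5sKO, without overlap. The deeper libraries of the 2 groups were close in this ratio. Btg3 was near the minimum count, with overlapping groups.

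Gadd45a (ENSMUSG00000036390, chr6:67035096-67037457, minus strand) had 269 and 179 normalised counts in control and 358 and 1171 in Prmt5sKO. The groups did not overlap, but the Prmt5sKO libraries differed 3.27-fold and the mean of that group, 764 ± 575 against 224 ± 63.6 in control (SD, n = 2 each), rests on the shallower one. The log2 fold change was 1.50 (SE 0.68, 95% interval -0.17 to 3.17, limma-voom adjusted p = 0.409). Without the shallower Prmt5sKO library it was 0.69, and without the deeper one it was 2.40. Each of these fits leaves 1 Prmt5sKO library, so the spread of that group is not measured. With all libraries kept, the limma adjusted p ran up to 0.432, without a filter on low counts. It was lowest, at 0.0487, with a replicate block that crosses deeper with shallower libraries, chosen after seeing the data. The shallower Prmt5sKO library is also the one with the high muscle differentiation markers. Against 25.2% of all genes tested, 9 of these 12 markers were higher in Prmt5sKO without overlap. Their median difference between the shallower and the deeper Prmt5sKO library was 3.67 log2 units, and their part in the Gadd45a values was not tested. Gadd45a shares 19.1% of its exon bases with E230016M11Rik on the opposite strand.

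The relatives of Gadd45a had overlapping groups. Gadd45b had 294 and 193 normalised counts in control and 271 and 305 in Prmt5sKO (log2 fold change 0.25), and Gadd45g had 1133 and 943 against 681 and 1339 (log2 fold change -0.13). The reads of Gadd45a per read of Gadd45b amounted to 0.915 and 0.926 in control and 1.32 and 3.84 in Prmt5sKO. This ratio compares the genes within a library and does not depend on the scaling. The same ratio to Gadd45g was 0.237 and 0.190 in control and 0.526 and 0.875 in Prmt5sKO, so it was also higher in both mutant libraries.

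Plk2 and Plk3 encode polo-like kinases that are induced by stress and growth signals and act in centriole duplication and checkpoint responses. Their differences had opposite signs. Plk2 (ENSMUSG00000021701, chr13:110395046-110400844, plus strand) had 2925 and 2526 normalised counts in control and 4538 and 3654 in Prmt5sKO. Replicates of both groups were close, and the lowest Prmt5sKO value was 1.25 times the highest control value. Its log2 fold change was 0.58 (SE 0.22, limma-voom adjusted p = 0.356).

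Plk3 (ENSMUSG00000028680, chr4:117128655-117133963, minus strand) had 147 and 183 normalised counts in control and 97.1 and 72.4 in Prmt5sKO. It was the lowest of the 10 by reads, with 474 reads over the 4 libraries, and both Prmt5sKO libraries lay below both control libraries. The means were 165 ± 25.4 and 84.7 ± 17.4 (SD, n = 2 each), 1.91-fold lower in Prmt5sKO, with a log2 fold change of -0.93 (SE 0.39, 95% interval -1.88 to 0.01, limma-voom adjusted p = 0.389). The reads of Plk2 per read of Plk3 amounted to 19.9 and 13.8 in control and 46.8 and 50.5 in Prmt5sKO, without overlap. Plk3 shares 3.319% of its exon bases with Tctex1d4 on the opposite strand.

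The polo-like kinases of mitosis and centriole duplication, Plk1 and Plk4, were lower in Prmt5sKO too, with log2 fold changes of -0.85 (SE 0.20) and -0.98 (SE 0.22). Plk1 had 1918 and 1998 normalised counts in control and 1160 and 1009 in Prmt5sKO. Among 12 proliferation genes, 11 were lower in Prmt5sKO without overlap, where 23.6% of all genes tested were lower. The log2 fold changes of the 12 had a median of -1.04, from -1.45 for the replication helicase gene Mcm3 to -0.42 for Ccnb1. Their part in the Plk3 values was not tested.

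Zmat3, Phlda3 and Eda2r act on RNA and at the membrane. Zmat3 encodes a zinc finger protein that binds RNA and alters splicing and stability of its targets. Phlda3 encodes a pleckstrin homology domain protein that competes with the kinase Akt for membrane lipids. Eda2r encodes a tumour necrosis factor receptor family member for the ligand ectodysplasin A2, on the X chromosome.

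Eda2r (ENSMUSG00000034457, chrX:97333840-97377216, minus strand) had 1032 and 479.8 normalised counts in control and 2111 and 2809.9 in Prmt5sKO. Both Prmt5sKO libraries were high, the lower one 2.05 times the higher control library, while the control libraries differed 2.15-fold. The means were 756 ± 390.3 and 2460.4 ± 494 (SD, n = 2 each). The log2 fold change was 1.78 (SE 0.38, 95% interval 0.84 to 2.71, limma-voom adjusted p = 0.242), and this was the smallest adjusted p among the 10 genes. Without the deeper Prmt5sKO library the log2 fold change was 1.98, and without the shallower control library it was 1.25. With a replicate block that pairs the deeper libraries, the limma-voom adjusted p was 0.298. With the crossed pairing, chosen after seeing the data, it was 0.0216. Of its receptor relatives, Edar had under 10 normalised counts in each library and Tnfrsf19 had 24.9 and 5.19 in control and 41.5 and 77.4 in Prmt5sKO (log2 fold change 2.13).

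Zmat3 (ENSMUSG00000027663, chr3:32334792-32366014, minus strand) had 2465 and 2032 normalised counts in control and 3737 and 2677 in Prmt5sKO. The groups were apart by little, since the lowest Prmt5sKO value was 1.09 times the highest control value. Its log2 fold change was 0.50 (SE 0.25, limma-voom adjusted p = 0.439). Its relatives Zmat1 and Zmat2 had log2 fold changes of 0.67 and -0.09.

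Phlda3 (ENSMUSG00000041801, chr1:135766119-135769136, plus strand) had 3850.2 and 1199.6 normalised counts in control and 2357 and 5523 in Prmt5sKO. The lowest and the highest value of the 4 came from the shallower libraries, and the groups overlapped. The libraries differed 3.21-fold within control and 2.34-fold within Prmt5sKO. The log2 fold change of 0.75 (SE 0.63, 95% interval -0.78 to 2.28, limma-voom adjusted p = 0.624) therefore rested on single libraries. Without the shallower control library it was -0.072, and without the shallower Prmt5sKO library it was 0.13. Phlda1, a relative, had 1727 and 923 normalised counts in control and 654 and 944 in Prmt5sKO (log2 fold change -0.70). The reads of Phlda3 per read of Phlda1 amounted to 2.23 and 1.30 in control and 3.60 and 5.85 in Prmt5sKO, without overlap, although neither gene alone separated the groups.

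**Figure D2:**
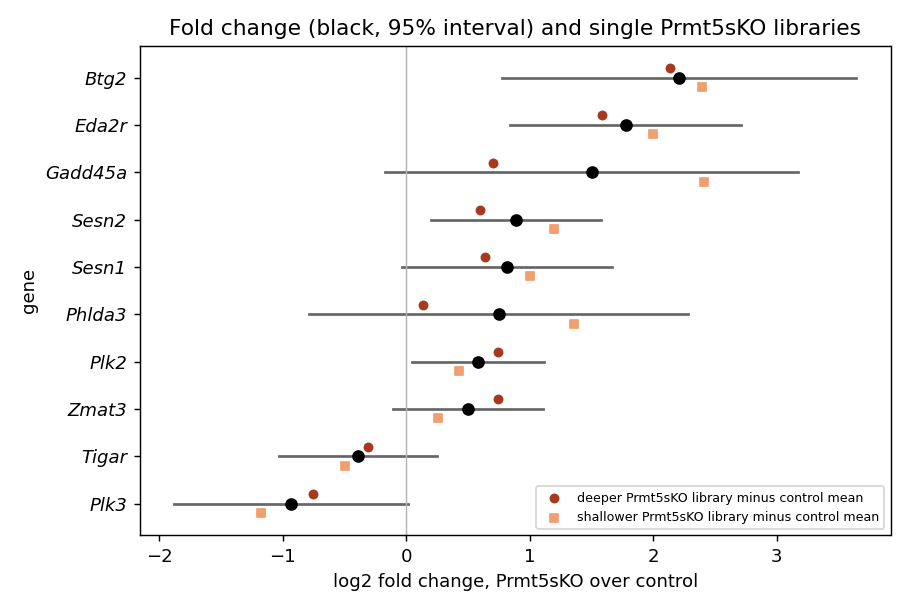
Log2 fold changes, Prmt5sKO over control, of the 10 genes (black points, with 95% intervals from limma-voom), with the deeper (circles) and shallower (squares) Prmt5sKO library minus the control mean. The control mean is that of the log2 values. The intervals of Btg2, Eda2r, Sesn2 and Plk2 lie above 0, those of the other 6 genes reach over 0, and the libraries are farthest apart for Gadd45a (0.70 and 2.41) and Phlda3 (0.13 and 1.36).

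Levels between genes were compared as reads per kb of exon, scaled to the library (RPKM). On this scale Phlda3 was the highest of the 10 in both groups, at 100.4 ± 74.5 in control and 157 ± 89.0 in Prmt5sKO (SD, n = 2 each), and Plk2 was the next, at 37.6 ± 3.89 and 56.5 ± 8.63. The range of Phlda3 over the control libraries, 47.7 to 153, lay above the 2 control values of Plk2, 40.4 and 34.9. Zmat3 followed in control at 12.2 ± 1.66 RPKM, then Sesn2 at 9.45 ± 0.08. Eda2r, Gadd45a, Btg2 and Tigar had means between 6.59 and 7.95 RPKM in control with overlapping ranges, and Plk3 (4.04) and Sesn1 (2.67) were the lowest. In Prmt5sKO the order of these genes changed: Btg2 (27.9 ± 3.52), Gadd45a (26.9 ± 20.2) and Eda2r (25.9 ± 5.20) came next after Plk2, above Sesn2 (18.0) and Zmat3 (17.4), and the range of Gadd45a overlapped with those of the other 4. Plk3 (2.08) was then the lowest, below Sesn1 (4.66).

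**Figure D3:**
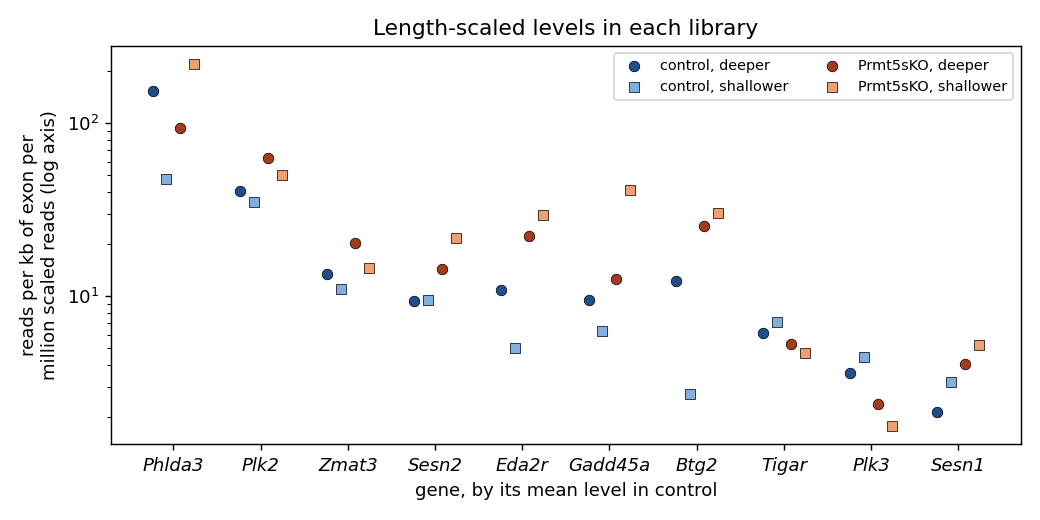
Reads per kb of exon, scaled to the library as RPKM (log axis), of the 10 genes in each library, ordered by the mean in control. Phlda3 and Plk2 are the highest in both groups, and Btg2, Gadd45a and Eda2r sit between Zmat3 and Tigar in control and above Zmat3 by mean in Prmt5sKO.

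The Prmt5sKO libraries differed in how far these genes lay from the control mean, taken here over log2 values. In the deeper library the median difference of the 10 was 0.67 log2 units, from -0.75 for Plk3 to 2.14 for Btg2, and in the shallower one it was 1.10, from -1.17 for Plk3 to 2.41 for Gadd45a. Over all genes tested these medians were 0.04 and 0.03. All genes but Plk3 and Tigar lay above this control mean of log2 values in both libraries. For Phlda3 the deeper library, at 2357 normalised counts, was below the control mean of the counts themselves, 2525. In the shallower Prmt5sKO library 6 of the 10 were higher than in the deeper one, and 6 of the 10 had their lowest value in the shallower control library. The median difference between libraries of a group was 0.44 log2 units for these genes and 0.37 for all genes in control, and 0.42 and 0.43 in Prmt5sKO. The muscle differentiation markers lay at a median of 0.85 above the control mean in the deeper one and of 4.60 in the shallower one. Of the 10 genes, Gadd45a (0.70 and 2.41), Phlda3 (0.13 and 1.36), Sesn2 (0.60 and 1.19), Eda2r (1.58 and 2.00), Sesn1 (0.64 and 1.00) and Btg2 (2.14 and 2.39) were also higher in the library with the high markers. Plk2 (0.74 and 0.43), Zmat3 (0.74 and 0.26), Tigar (-0.31 and -0.49) and Plk3 (-0.75 and -1.17) were lower in it. The part of the markers in these values was not tested.

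**Figure D4:**
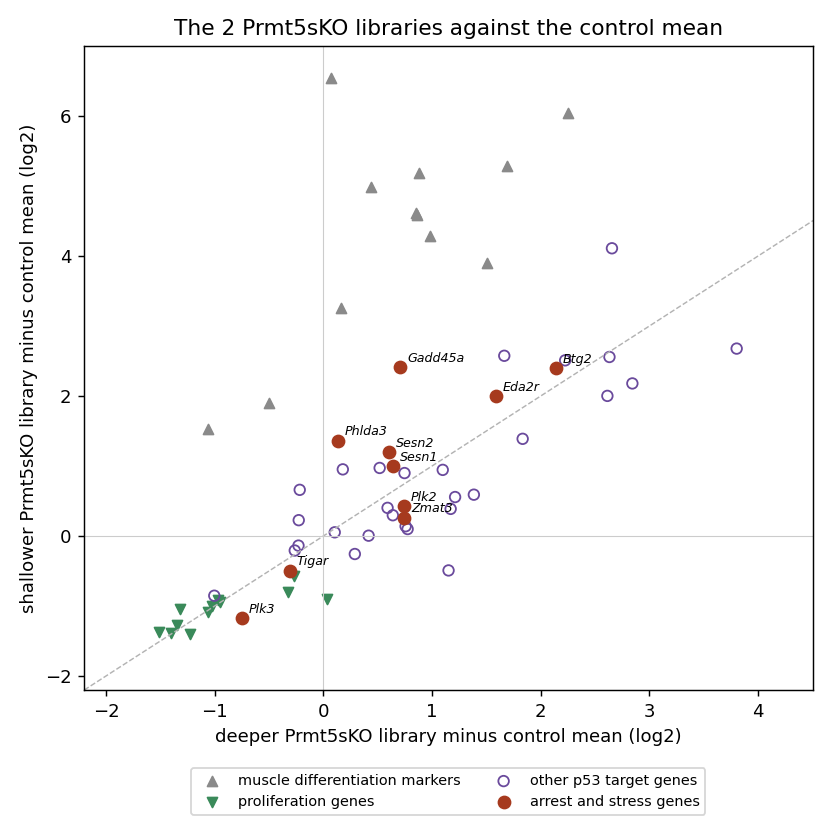
Log2 difference from the control mean in the deeper (horizontal axis) and the shallower (vertical axis) Prmt5sKO library, with a dashed line of equality, for the 10 genes, 29 other p53 target genes, 12 proliferation genes and 12 muscle differentiation markers. The control mean is that of the log2 values. Gadd45a, Phlda3, Sesn2, Eda2r, Sesn1 and Btg2 lie above the line, Plk2, Zmat3, Tigar and Plk3 below it, and the muscle markers far above it.

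Markers of cell types other than muscle were at low counts apart from Col3a1. Fibroblast markers summed to 13486 and 6050 normalised counts in control and 14149 and 16748 in Prmt5sKO, nearly all of it Col3a1, which myoblasts also express, while the defining marker Pdgfra had 44.1 or fewer in each library and Lum was listed at 0 in all but 1 library. Fibroblast, endothelial, leukocyte and Schwann cell lists held 6, 4, 4 and 4 genes. Endothelial, leukocyte and Schwann cell markers summed to at most 163, 112 and 52.0 normalised counts in a library. Of the leukocyte markers, Ptprc and Adgre1 had no entry under these symbols among the deposited genes, so the leukocyte sum rests on 2 genes. The part of these cells in the values of the 10 genes was not tested.

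Beside these 10 genes, other known p53 targets were counted from lists of arrest, death, and repair and metabolism genes. These lists were also chosen with earlier results of these data known. Of these 29 genes, 18 were higher and 2 lower without overlap, where 25.2% of all genes tested were higher and 23.6% lower. Their median log2 fold change was 0.51, against 0.78 for the 10 genes and 0.02 for all genes tested. Among 6 other arrest genes 5 were higher without overlap, and the groups overlapped for Sfn (log2 fold change 0.02). Rprm, the highest by fit, had 0 reads in the shallower control library and is given no fold. Higher too was Cdkn1a, which encodes the cyclin-dependent kinase inhibitor p21, with 3379 and 2057 normalised counts in control and 8358 and 15703 in Prmt5sKO (log2 fold change 2.13, SE 0.38). The death genes, 13 in number, were higher without overlap in 8 cases and lower without overlap in 0. Their log2 fold changes ran from -0.18 for Bax, a pore-forming protein of mitochondria, to 3.27 for the death receptor gene Fas. Of 10 repair and metabolism genes 5 were higher and 2 lower without overlap, with log2 fold changes from -1.24 for Gls2, a glutaminase, to 2.54 for the peptide transporter gene Tap1. The order of the list medians was arrest (0.84), death (0.74), and repair and metabolism (0.43). Btg1 was counted in the arrest list and is a relative of Btg2.

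The RNA of p53 itself did not separate the groups. Trp53 had 3612 and 3146 normalised counts in control and 4159 and 2901 in Prmt5sKO, with a log2 fold change of 0.04 (SE 0.25). Mdm2, which encodes the ubiquitin ligase that degrades p53 and is its target, had 3457 and 2080.2 normalised counts in control and 10628 and 6640 in Prmt5sKO (log2 fold change 1.64, SE 0.35, limma-voom adjusted p = 0.236). Of 10 tested genes for p53 family members and their regulators, 3 were higher and 1 was lower without overlap, the lower one Usp7 at -0.64. Over all genes tested, 25.2% were higher and 23.6% lower without overlap. Trp63, the highest by fit, had 0 reads in the shallower control library and overlapping groups. Over the 16 tested relatives of the 10 genes the median was 0.06, with 5 higher and 4 lower without overlap, near the shares over all genes tested.

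**Figure D5:**
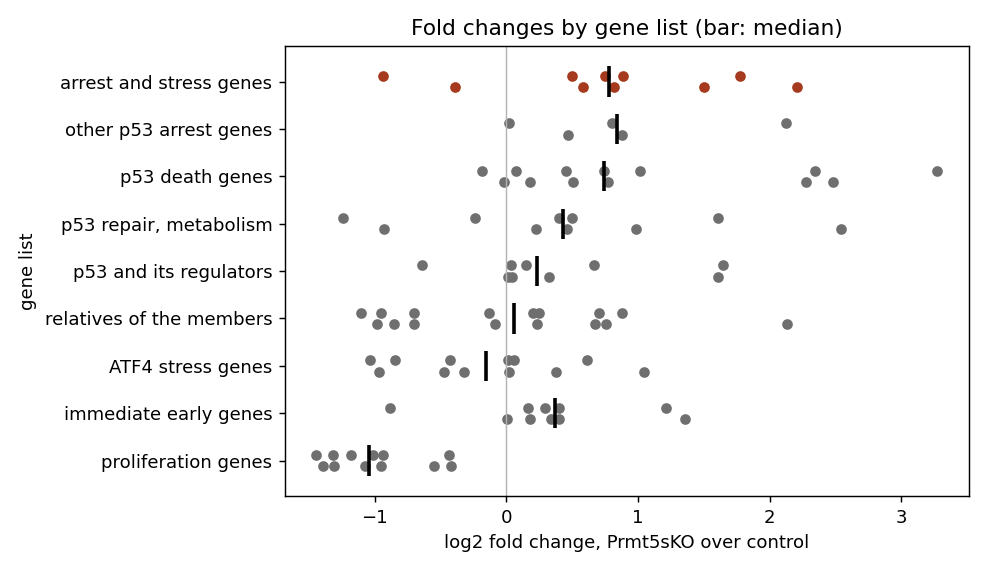
Log2 fold changes, Prmt5sKO over control, of single genes (points) in 9 lists, with a bar at the median of each list over its tested genes. Points are left out for genes with 0 reads in a library. The 10 genes have a median of 0.78, with Plk3 and Tigar below 0, the other p53 lists lie mostly above 0, and the proliferation genes lie below 0.

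The pattern of the 10 genes over the 4 libraries was summarised by the median of their centred log2 values, which was -0.15 and -0.42 in control and 0.19 and 0.67 in Prmt5sKO. Among 10295 other genes with a mean of at least 100 normalised counts, the 5 nearest to this profile by the sum of squared differences were Thap3, Nat9, Coq8b, Gde1 and Slc25a20, with sums between 0.0239 and 0.0274 over the 4 libraries. Gde1, for example, had 468 and 392 normalised counts in control and 604 and 872 in Prmt5sKO. Their log2 fold changes ran from 0.61 to 0.74.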

How the data were processed

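RNA-seq was analysed for 2 control and 2 Prmt5sKO libraries of cultured MuSC. Per the labels and the study's methods, RNA was depleted of ribosomal RNA, sequenced on the Ion Torrent Proton platform, trimmed with Reaper, aligned to GRCm38 with STAR (2.4.0a) and compared with DESeq2 (1.62). As deposited by the authors, the signal values are group means of gene counts divided by size factors. Columns of the authors' fold changes and p-values were not used.

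Since 1 read of either library adds a fixed step to a mean over 2 libraries, whole reads per library were recovered for 100% of 20065 genes (relative tolerance 1e-12), giving 14436914 and 13240754 reads in the control and 20047430 and 16190414 in the Prmt5sKO libraries. Libraries of a group differed well beyond counting error (chi-square per gene 79.6 and 140.1), and precision is limited by 2 libraries per group. Reads were scaled by TMM (trims of 30% and 5%, own code) and tested with limma-voom (limma 3.58.1, R 4.3.3) over genes with a mean of at least 5 normalised counts, with Benjamini-Hochberg adjustment. The call was an adjusted p of at most 0.05 and at least 2-fold, as in the study's methods, and the code was tested on simulated data. Count models of edgeR and DESeq2 were not run on the recovered reads, and what they would call was not examined.

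The 10 genes and the other gene lists were chosen with earlier results of these data known. Named are the 10 genes, their relatives, Prmt5, Trp53, Mdm2, Cdkn1a, Myog, Pax7 and Myod1, and the 5 genes nearest in pattern. The highest and lowest gene of each list are also named, except for the endothelial, leukocyte and Schwann cell lists. Atf4, Egr1, Col3a1, Pdgfra, Dcn, Ly6a and Lum were named after their values were seen. Symbols came from GENCODE M21, which held 19782 of the 20065 identifiers, coordinates are GRCm38, and promoter sequences are from RefSeq. The labels number the replicates, but the columns carry no numbers, and pairing by depth gave a correlation of deviations of -0.30 over 11487 genes. Scaling, filters, limma-trend, left-out libraries and replicate blocks were tried as alternatives.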

Additional observations from a re-analysis of the deposited data

How the results depend on the processing

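Over 12 alternatives, 115 of 120 fold changes of the 10 genes kept their direction and their side of the threshold. With 1 library left out, the lone library of a group is assumed to vary like the other group. Leaving out a library can hardly make groups overlap that did not, so the count without overlap could hardly fall and is no check. The number of genes called then ranged from 0 to 489 (489 without the deeper and 55 without the shallower Prmt5sKO library, 0 without either control library), the number of genes at an unadjusted p under 0.05 from 658 to 2969, that of the 10 genes from 2 to 6, the number higher without overlap from 7 to 8, and the median log2 fold change of the 10 genes from 0.67 to 1.10. Eda2r and Gadd45a were called without the deeper Prmt5sKO library, and Phlda3 changed sign without the shallower control library (log2 fold changes from -0.072 to 1.59 with 1 library left out). Scalings, filters and limma-trend called 0 genes and gave medians from 0.77 to 0.89 and 4 to 6 of the 10 genes at an unadjusted p under 0.05. With a replicate block that pairs the deeper libraries, 0 genes were called, 1884 had an unadjusted p under 0.05, 4 of the 10 among them, and the median was 0.78. The crossed pairing, chosen after seeing the data, called 346 genes, Eda2r and Gadd45a among them, and put 3155 genes and 7 of the 10 at an unadjusted p under 0.05. The cause of these changes was not tested. With 2 libraries per group, the intervals of 6 of the 10 genes reach over 0, and Plk3 rests on 474 reads.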
